A study of Mus musculus with 2 samples.

Results

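RORgt+ dendritic cells (DCs) that carried transcripts of Itgb8 or Aldh1a2 were compared with RORgt+ DCs in which neither transcript was counted. RORgt+ DCs were taken as cells of hashtags 2, 4 and 5 with at least 5 unique molecular identifiers (UMIs) of Prdm16 and at most 1 UMI of Cd3e. Positive cells held 2 or more UMIs of Itgb8 and Aldh1a2 together, and negative cells held 0. The rule found 85 Prdm16-high cells among 4977 cells of these hashtags and 15480 cells in all: 26 positive, 40 negative and 19 with exactly 1 UMI, which were left out. The sides were therefore chosen on measured values, and Prdm16, Itgb8, Aldh1a2 and Cd3e are described below without a test.

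All cells came from untreated 15-day-old mice of the Gm38411-iCre-hCD2 reporter genotype, which both sides share, from whose mesenteric lymph nodes and small-intestinal lamina propria the CD11c+MHC-II+ fraction without CD3 or B220 was sorted. Each of 6 biological replicates bore its own hashtag antibody, 3 per tissue, and droplet libraries were made from the pool. The tissue behind a given hashtag is not stated in the labels, so no tissue is named here. Per hashtag there is 1 summed positive library and 1 summed negative library, and the comparison is between the sides of the same replicate.

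Itgb8 encodes the integrin beta8 chain, which pairs with the alphav chain (Itgav) at the cell surface and releases active TGF-beta from its latent complex. Aldh1a2 encodes RALDH2, an enzyme that makes retinoic acid from retinaldehyde. TGF-beta and retinoic acid together favour the differentiation of regulatory T cells in the gut, and RORgt+ DCs are antigen-presenting cells linked to that process for food and microbial antigens. Prdm16 is a zinc-finger transcription factor expressed in these cells. DCs that mature and leave a tissue raise Ccr7, the chemokine receptor that guides them to lymph nodes.

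Itgb8 and Aldh1a2 set the sides by the rule, and Hecw2, the gene with the largest positive difference below, was chosen for its value. The promoters of these 3 genes are shown. Each is the 250 bases before the RefSeq start on GRCm38.p6, 5′ to 3′ on the gene's strand: Itgb8 at chr12:119238277-119238526 (minus strand), Aldh1a2 at chr9:71215539-71215788 (plus strand) and Hecw2 at chr1:54195035-54195284 (minus strand).
Itgb8: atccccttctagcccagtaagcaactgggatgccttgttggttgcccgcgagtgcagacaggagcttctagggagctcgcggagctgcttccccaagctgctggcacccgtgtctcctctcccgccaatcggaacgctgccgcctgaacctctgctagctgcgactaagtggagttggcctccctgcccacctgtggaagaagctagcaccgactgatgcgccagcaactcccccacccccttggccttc
Aldh1a2: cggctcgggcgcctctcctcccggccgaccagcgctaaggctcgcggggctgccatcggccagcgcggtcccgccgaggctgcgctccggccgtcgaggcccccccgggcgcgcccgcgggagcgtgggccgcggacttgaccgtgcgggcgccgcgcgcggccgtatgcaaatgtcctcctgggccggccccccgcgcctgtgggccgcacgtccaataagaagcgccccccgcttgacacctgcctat
Hecw2: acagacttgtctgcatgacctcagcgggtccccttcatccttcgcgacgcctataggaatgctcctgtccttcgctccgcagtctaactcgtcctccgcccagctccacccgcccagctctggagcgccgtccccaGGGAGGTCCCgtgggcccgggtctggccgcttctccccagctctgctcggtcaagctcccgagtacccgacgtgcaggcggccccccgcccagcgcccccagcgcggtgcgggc
The 3 sequences hold 12, 40 and 24 CG dinucleotides, and their GC content is 62.4%, 77.6% and 70.0%. The kB consensus, the 10-letter motif of NF-kB proteins, was searched on both strands after the results below were known. Capitals mark its 1 match in Hecw2, 114 bases before the start; the windows of Itgb8 and Aldh1a2 hold none, which says only that these letters are not there. Among the genes called below, 62 of 83 higher and 32 of 36 lower genes had a promoter in the table, and the motif was in 7 (11.3%) and 4 (12.5%) of these. It was in 10.1% of the promoters of tested genes and 7.03% of all 27025, so the shares of called genes are near that of tested genes. A different form of the motif, tried first, was stricter at some letters and looser at another. It was in 0 of either group and in 1.75% of the promoters of tested genes. A match is a description of letters, not a binding site.

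The counts that set the sides differed widely between cells and hashtags. Of the 26 positive cells, 13 carried both transcripts, 8 Itgb8 alone and 5 Aldh1a2 alone. Hashtag 2 held 11 positive and 12 negative cells, hashtag 4 held 6 and 15, and hashtag 5 held 9 and 13. Just inside the limit, 4, 2 and 2 cells of hashtags 2, 4 and 5 held exactly 2 UMIs, and just outside it 4, 5 and 10 cells held 1. The highest cells held 12 UMIs in hashtag 2, 16 in hashtag 4, and 34, 42 and 72 in hashtag 5.

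**Figure D1:**
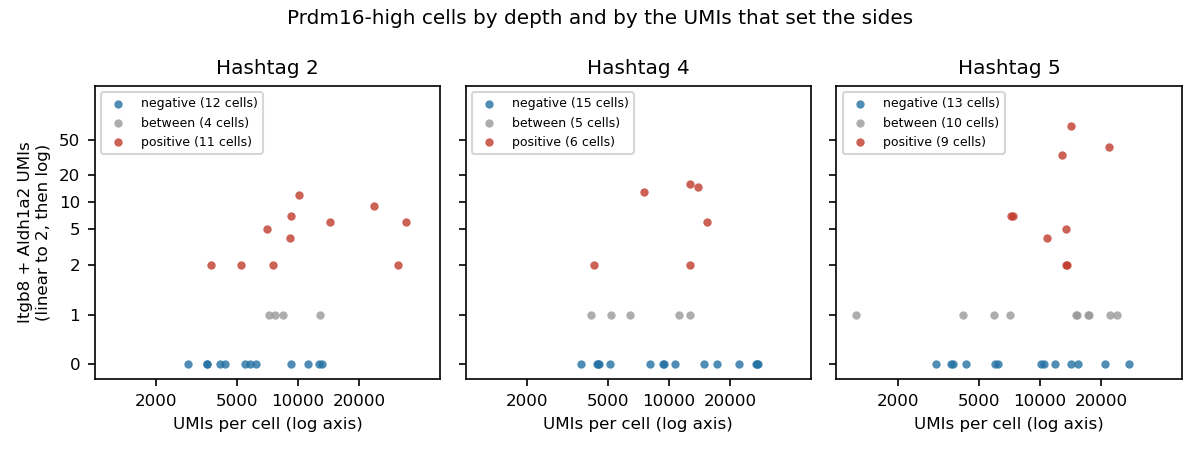
Each point is 1 Prdm16-high cell of hashtag 2, 4 or 5, placed by its total UMIs (log axis) and by its UMIs of Itgb8 and Aldh1a2 together (linear to 2, then log), coloured by side. Positive and negative cells overlap in total UMIs in every hashtag, and the 3 cells above 30 UMIs of the vertical measure (34, 42 and 72) are all in hashtag 5.

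Itgb8 (chr12:119162803-119238276) stood at 187, 631 and 1234 CPM (UMIs of the gene scaled to a common total of gene UMIs per summed library) in the positive libraries of hashtags 2, 4 and 5. Aldh1a2 (chr9:71215789-71296243) stood at 181, 180 and 287 CPM. Itgb8 thus varied more between the hashtags than Aldh1a2 did, but single cells weighed heavily in this. In hashtag 5 single cells gave 72, 33 and 21 of the 142 UMIs of Itgb8. Prdm16 (chr4:154316122-154637360) was 2722, 1728 and 1695 CPM in positive libraries and 2711, 3465 and 2601 CPM in negative ones. The sides overlapped only through the positive library of hashtag 2, where 1 cell gave 181 of the 422 UMIs of Prdm16. The other positive libraries lay below every negative one. At the Prdm16 limit, 6 further cells held 4 UMIs and 3 of the Prdm16-high cells held exactly 5.

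Other cells of the same hashtags give the background of the split. The same limit of 2 UMIs was met by 48.0% of 548 migratory DCs (0 UMIs of Prdm16, at least 3 of Ccr7 and 2 of Fscn1), against 30.6% of Prdm16-high cells. Among 189 T cells (2 or more UMIs of Cd3e, no Prdm16), 0.529% met it. The median depths of these sets were 11193, 9476 and 7419 UMIs per cell. Of 2950 cells without UMIs of Prdm16, Ccr7 or Cd3e, 2.17% met it, at a median of 5795 UMIs.

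Depth moved with the sides, as a rule on raw UMIs allows. The median was 9276, 12703 and 13413 UMIs per positive cell of hashtags 2, 4 and 5, against 5643, 9476 and 10161 per negative cell. It was higher on the positive side in 3 of 3 hashtags (exact paired permutation test, two-sided p = 0.25, the smallest that 3 pairs allow). The median share of mitochondrial UMIs was 1.41%, 3.08% and 2.30% in positive cells and 7.05%, 2.82% and 2.42% in negative cells, so hashtag 2 stood apart. The 6 summed libraries held 66537 to 195381 UMIs, the smallest being the positive library of hashtag 4. The part of depth and RNA quality in the differences was not tested, beyond the settings that thin cells or limit mitochondrial UMIs. No doublet caller was applied. Barcodes that the authors called hashtag multiplets were left out, 0 barcodes were shared between hashtags, and doublets within a hashtag cannot be seen this way.

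Marker genes were read to check the label. Col17a1, an epithelial collagen chain, Cep112 and Aire, the regulator of tissue-antigen expression in the thymus, are among 7 RORgt+ DC markers. The list also holds Prdm16, which chose the cells. Without Prdm16 it summed to 2819, 1668 and 1286 CPM on the positive side and 1860, 2559 and 1853 CPM on the negative side. In migratory DCs, which hold no Prdm16 by their limits, it summed to 27.1 to 63.7 CPM. Tnfrsf11b, the seventh marker, had 0 UMIs on both sides, which allows up to 8.91 CPM over the positive and 7.22 CPM over the negative libraries; such limits cover counting error only. Of the 10 ILC3 markers, Il22, Il17a, Thy1, Cxcr6 and Ncr1 were at 0 on both sides, and the others were present. The stem-cell factor receptor Kit stood at 516, 165 and 130 CPM in positive and 705, 660 and 581 CPM in negative libraries. Il7r was higher on the positive side and is given with its test below. The ILC factors Gata3 and Rora and the IL-23 receptor Il23r held 5, 9 and 11 UMIs on the positive and 35, 22 and 7 on the negative side. The ILC3 list summed to 511 to 916 CPM on the positive side, 799 to 972.5 CPM on the negative side and 298 to 372 CPM in migratory DCs, and its part in the differences was not tested. Of the 10 T and NK cell markers, Cd3d, Trac, Trbc1, Nkg7, Lck and Cd2 were at 0 on both sides. Cd247 held 35 UMIs on the positive and 39 on the negative side, and Cd3g, Cd4 and Trbc2 at most 3. The list summed to 199.9, 45.1 and 34.8 CPM in positive and 85.1, 122.8 and 87.2 CPM in negative libraries. In migratory DCs it summed to 20.7 to 110.8 CPM, and its part in the differences was not tested. Fibroblast collagens Col1a1, Col1a2 and Col3a1 and the endothelial Cdh5 were at 0 on both sides. Pecam1, of endothelium and some leukocytes, was 0, 15.0 and 0 CPM in positive and 48.6, 87.0 and 72.7 CPM in negative libraries. It made up nearly the whole of the stroma and endothelium list, which summed to 0 to 15.0 CPM against 60.8 to 87.0 CPM. Epithelial markers summed to 199.9 to 270.5 CPM on the positive and 36.5 to 204.7 CPM on the negative side, and to 2.8 to 18.7 CPM in migratory DCs. Epcam was 155, 195 and 113 CPM against 24.3, 148 and 102 CPM, Krt8 was 90.3, 30.1 and 34.8 CPM against 0, 25.6 and 50.9 CPM, and Krt19 was at 0 on both sides. The part of stroma, endothelium and epithelium in the differences was not tested. Transcripts of the reporter transgene hCD2 gave 5, 3 and 3 UMIs in positive libraries and 1, 14 and 18 in negative ones, too few for the test.

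Positive RORgt+ DCs carried higher levels of DC maturation genes, among them Ccr7, Nudt17, Cd63, Socs2 and Gadd45b, and lower levels of a smaller set that included Il18r1, Pde7b, Glis3, Nrros and Runx3. Of 2598 genes tested, 119 (4.58%) were called at an adjusted p below 0.05 by edgeR's quasi-likelihood test with Benjamini-Hochberg adjustment and the hashtag as a block: 83 higher (3.19%) and 36 lower (1.39%) on the positive side. The median log2 fold change over all genes was -0.05. These calls depend on hashtag 4. Without it edgeR called 0 genes, the smallest adjusted p was 0.164 and 287 genes had an unadjusted p under 0.05, while DESeq2 called 6. All 118 of the called genes that could still be tested kept their direction in that fit. Without hashtag 2 there were 482 calls, without hashtag 5 there were 66, and without the hashtag block 202. With only cells of at most 5% mitochondrial UMIs 70 genes were called.

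The DC maturation and migration list held more calls than any other list. Of 23 tested members (27 listed), 11 rose and 0 fell, 22 had a positive log2 fold change, and the median was 1.54 on the log2 scale. The members were listed with earlier results of these data known, so the count is a description. Without hashtag 4 the list had 0 calls, 20 of 23 positive values and a median of 1.31, and all 11 members named as risen kept their direction. The count was 18 without hashtag 2, 6 without hashtag 5, 6 at the 5% mitochondrial limit and 5 when sides were set on cells thinned to 5000 UMIs. It was 3 when the sides were split by Itgb8 alone. Markers of migratory DCs as a whole (6 of 6 tested, 4 higher) summed to 2535, 4013 and 3225 CPM in positive libraries, 1301, 834 and 1046 CPM in negative ones, and 4188 to 5302 CPM in migratory DCs. These 6 markers are all members of the maturation list too, so they repeat a part of the count above. Ccr7 and Fscn1 are among the 6 and chose the migratory DCs. Without both the sums were 2129, 2901 and 2269 CPM in positive libraries, 1033, 691 and 785 CPM in negative ones and 2255 to 2713 CPM in migratory DCs, so that positive libraries overlapped migratory ones. The part of RNA from migratory DCs in this was not tested.

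Ccr7 (chr11:99144199-99155077), the receptor for the lymph-node chemokines CCL19 and CCL21, was 245, 797 and 765 CPM in positive libraries and 158, 92.1 and 72.7 CPM in negative ones. Its groups did not overlap, and the gap was narrowest in hashtag 2. The log2 fold change was 2.48 ± 0.56 (SE, n = 3 hashtags; edgeR adjusted p = 0.037). It was not called when the sides were split by Aldh1a2 alone (1.20) or set on thinned cells (1.45), without hashtag 4 (2.00) or 5 (2.01), at the 5% mitochondrial limit (2.57) or with positive cells at 3 or more UMIs (2.63). Ccr7 stood at 270 CPM in droplets with no more than 100 UMIs, a measure of free RNA, which is above all 3 negative libraries and above the positive library of hashtag 2.

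Nudt17 (chr3:96705892-96708916), of the Nudix hydrolase family, was 129, 361 and 165 CPM against 12.2, 15.4 and 0 CPM, and 4 UMIs made up the whole negative side. Its log2 fold change was 4.66 ± 0.67 (edgeR adjusted p = 0.010). Cd63 (chr10:128896231-128912822), a tetraspanin of late endosomes, was 348, 992 and 235 CPM against 36.5, 25.6 and 79.9 CPM. Its log2 fold change was 3.35 ± 0.68 (edgeR adjusted p = 0.025). For both genes every positive library lay above every negative one. Nudt17 passed the count filter only through its positive libraries, which in part sets that gap. Split by Itgb8 alone, neither Nudt17 nor Cd63 was called, at 1.85 and 1.64.

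Other members that rose were Socs2, a suppressor of cytokine signalling (log2 fold change 2.45 ± 0.38), Gadd45b, a stress-response gene (2.43 ± 0.44), Tmem123 (2.37 ± 0.51), Anxa3, an annexin (2.10 ± 0.37), Cd200, ligand of an inhibitory receptor (2.04 ± 0.50), the adaptor Samsn1 (1.81 ± 0.37), the calcium-channel subunit Cacnb3 (1.80 ± 0.42) and Traf1, an adaptor of TNF receptors (1.54 ± 0.38). Socs2 stood at 735, 1293 and 817 CPM in positive libraries and 146, 235 and 153 CPM in negative ones. The noncanonical NF-kB genes Relb and Nfkb2 were not called, with log2 fold changes of 1.19 ± 0.37 and -0.21 ± 0.49. Fscn1, which bundles actin in mature DCs, was 161, 316 and 191 CPM against 109, 51.2 and 189 CPM and was not called (1.04 ± 0.53, edgeR adjusted p = 0.315).

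**Figure D2:**
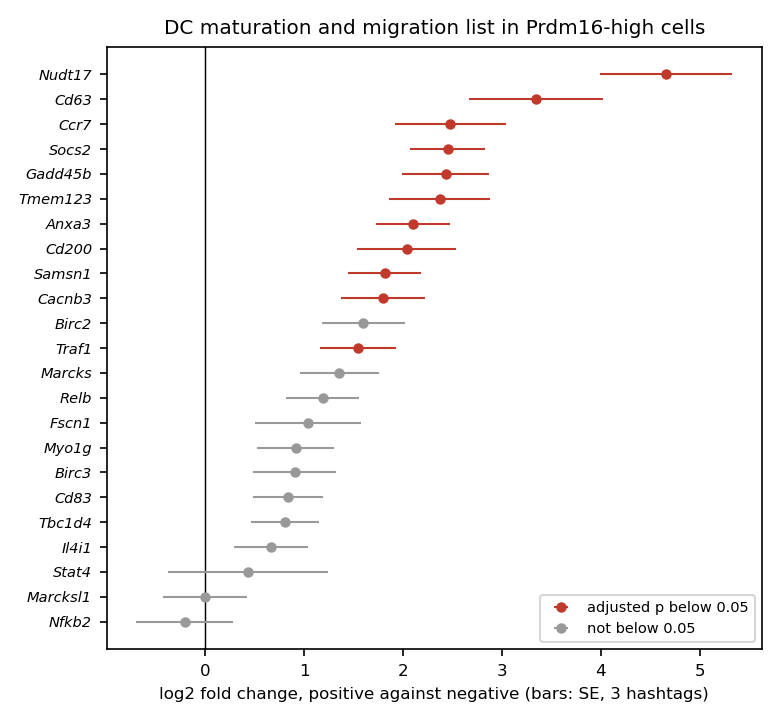
Points are log2 fold changes of positive against negative Prdm16-high cells for the 23 tested genes of the DC maturation and migration list. Bars are SE from the edgeR fit of 3 hashtags, and red marks an edgeR adjusted p below 0.05. Of the 23 genes 22 lie above 0, from Nudt17 at 4.66 down to Nfkb2 at -0.21.

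The ligands and partners of the integrin pathway mostly did not pass the test. In the TGF-beta list 6 of 26 genes were tested, 0 rose and 1 fell. Itgav, the partner chain of Itgb8, was 38.7, 45.1 and 183 CPM in positive libraries and 72.9, 97.2 and 87.2 CPM in negative ones. Its log2 fold change of -0.07 ± 0.60 changed sign in 5 settings. Tgfb1, a ligand, was below the count filter with 14 UMIs on the positive and 23 on the negative side. Nrros, which anchors latent TGF-beta on myeloid cells, was the member that fell: 123, 15.0 and 69.5 CPM against 316, 312 and 283 CPM, with no overlap and a log2 fold change of -2.11 ± 0.49 (edgeR adjusted p = 0.039). Itgb1, another integrin beta chain, was not called (1.24 ± 0.37, edgeR adjusted p = 0.085).

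Apart from Aldh1a2 itself, 3 of 26 retinoic acid genes were tested and 0 were called. Dhrs3, which reduces retinaldehyde, had a log2 fold change of -0.85 ± 0.80, and Stra6l one of -0.58 ± 0.49.

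Most antigen presentation genes were not called. Of 12 tested MHC class II genes 1 rose and 0 fell, with a median log2 fold change of 0.07. H2-Eb2 (chr17:34325503-34341410), a beta chain little expressed next to H2-Eb1, was 239, 180 and 86.9 CPM against 36.5, 35.8 and 36.3 CPM (2.14 ± 0.52, edgeR adjusted p = 0.043). DESeq2 did not call it. Of 16 tested MHC class I genes 1 rose, 0 fell and 14 had a positive sign, with a median of 0.65. Nlrc5 (chr8:94434335-94527272), the transactivator of class I genes, was 490, 616 and 556 CPM in positive libraries and 97.2, 118 and 182 CPM in negative ones. Those positive values were close together and all above the negative ones (2.13 ± 0.41, edgeR adjusted p = 0.022). Split by Aldh1a2 alone it was 1.11 and not called. B2m and H2-K1, its targets, were not called, at 0.60 ± 0.39 and 0.74 ± 0.37.

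Among cytokine genes 2 of 28 were tested and 1 rose. Il15 (chr8:82331624-82403252), a growth factor for lymphocytes, was 116, 466 and 391 CPM against 36.5, 51.2 and 94.5 CPM (2.44 ± 0.47, edgeR adjusted p = 0.022), and 1.09 and not called when split by Aldh1a2 alone. Il22ra2, the gene of the IL-22 binding protein, had 0 UMIs on both sides. In the TNF superfamily list 1 of 4 tested genes rose: Tnfrsf1b, TNF receptor 2, at 206, 421 and 235 CPM against 134, 66.5 and 43.6 CPM (1.94 ± 0.49, edgeR adjusted p = 0.049, the value nearest to the limit and lost under 11 settings). Tnfrsf11a, the receptor RANK, was 219, 496 and 530 CPM against 170, 133 and 218 CPM. Its groups did not overlap, though it was not called (1.25 ± 0.43, edgeR adjusted p = 0.129). Over all tested genes 13.5% were higher and 15.1% lower on the positive side without overlap.

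Of 21 tested transcription factors and growth factor receptors 1 rose and 1 fell. Il7r, the IL-7 receptor chain, was 361, 256 and 417 CPM against 97.2, 102 and 124 CPM (1.69 ± 0.39, edgeR adjusted p = 0.038). When cells with any Cd3e, Cd3d or Cd3g UMI were left out it was no longer called (1.12), nor by DESeq2, without hashtag 5 (1.68), by Itgb8 alone (0.85) or by Aldh1a2 alone (1.18). Runx3, a Runt-family factor of lymphocytes and DCs, was 535, 60.1 and 95.6 CPM against 1106, 783 and 647 CPM (-2.25 ± 0.50, edgeR adjusted p = 0.032). A single cell gave 64.3% of its positive UMIs, and it was not called without the hashtag block or by Itgb8 alone (-0.82). Flt3, the receptor that sustains DCs, overlapped between the sides (0.62 ± 0.56) and had the opposite sign without hashtag 5.

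Genes that mark RORgt+ DCs were not called in either direction: 0 of 7 tested of 25 listed, with a median log2 fold change of -0.83. Aire was 432, 150 and 191 CPM in positive libraries and 36.5, 15.4 and 262 CPM in negative ones. The side with more Aire was the positive one in hashtags 2 and 4 and the negative one in hashtag 5 (1.67 ± 0.72, edgeR adjusted p = 0.228). All 10 positive UMIs of hashtag 4 came from 1 of 6 cells, and a single cell gave 40.5% of the UMIs of the whole negative side. Without hashtag 5 the value of Aire was 3.46 and it was called. Col17a1 was 1213, 736 and 339 CPM against 1106, 1689 and 1032 CPM (-0.83 ± 0.41). Ccr6, the receptor for CCL20, was 135, 90.2 and 60.8 CPM against 365, 210 and 182 CPM, without overlap and below the limit of the test (-1.37 ± 0.40, edgeR adjusted p = 0.078). Gm38411, the locus of the reporter, gave 9 UMIs on the positive and 49 on the negative side (-2.35 ± 0.77, edgeR adjusted p = 0.114). Pigr, the polymeric immunoglobulin receptor, gave 3 against 26 UMIs, a ratio of levels of 0.142 with a 95% counting interval of 0.0276 to 0.464 (exact binomial).

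The costimulatory molecules Cd40 (1.11 ± 0.50), Icosl (1.33 ± 0.38) and Cd86 (-0.71 ± 0.60) made up the 3 tested genes of their list, and 0 were called. Cd274, the ligand PD-L1, was below the count filter, with 36 UMIs on the positive and 26 on the negative side. Idi1, isopentenyl-diphosphate isomerase, rose (1.89 ± 0.46, edgeR adjusted p = 0.043) as 1 of 5 tested sterol synthesis genes. It was 503, 391 and 400 CPM against 72.9, 87.0 and 218 CPM. The lists of NF-kB regulators (17 tested), actin and motility (25), early response and handling stress (18), chemokines (1), chemokine and migration receptors (4), core DC surface genes (4), Toll-like receptors (3), tolerance-linked enzymes (2) and cell cycle (2) had 0 calls.

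The 10 largest increases included genes best known outside the immune system. Most of the 10 passed the count filter only through their positive libraries, so a gap between the sides is in part set by the filter. Hecw2 (chr1:53806872-54195034), a ubiquitin ligase, was 199.95, 481 and 452 CPM against 24.3, 15.4 and 7.27 CPM (4.71 ± 0.58, edgeR adjusted p = 0.0069). It was 3.65 and called when split by Itgb8 alone, and 1.41 and not called by Aldh1a2 alone (edgeR adjusted p = 0.101). Tnni1 (chr1:135783033-135810989), the troponin I of slow skeletal muscle, was 626, 271 and 130 CPM against 48.6, 5.12 and 7.27 CPM (4.29 ± 0.55, edgeR adjusted p = 0.0069). A single cell gave 41.5% of its positive UMIs, and it was not called by Itgb8 alone (0.26) or with sides set on thinned cells (0.68). Ldb2, which binds LIM-domain proteins, was 355, 331 and 261 CPM against 0, 25.6 and 50.9 CPM (3.53 ± 0.60). Egfl6, a secreted matrix protein with EGF-like repeats, was 316, 150 and 469 CPM against 24.3, 20.5 and 43.6 CPM (3.32 ± 0.46, edgeR adjusted p = 0.0084).

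Egfl6 had no UMIs in any migratory DC library of these hashtags, Tnni1 at most 3.96 CPM and Ldb2 at most 22.2 CPM. In free RNA the 3 genes stood at 1.12, 1.68 and 2.24 CPM. By contrast Hecw2 (147 to 334 CPM), Nudt17 (190 to 303 CPM), Cd63 (440 to 618 CPM), Il15 (370 to 559 CPM) and Crip1 (1884 to 3811 CPM) were present in all 6 migratory libraries. Crip1, a small LIM-domain protein, was 1329, 2239 and 1234 CPM in positive and 60.8, 225 and 291 CPM in negative cells (3.18 ± 0.48). With sides set on thinned cells neither Crip1 (1.52) nor Ldb2 (1.97) was called, and by Itgb8 alone Crip1 lost its call. The remaining genes among the 10 were the homeodomain factor Pbx3 (3.43 ± 0.74), the sperm-channel subunit Catsperg1 (3.39 ± 0.77) and Usp18, which removes ISG15 from proteins (3.23 ± 0.69), with 45, 48 and 47 UMIs on the positive and 8, 6 and 9 on the negative side. Of 29 named genes that were called here, 15 kept the call when split by Itgb8 alone, and 16 of 28 by Aldh1a2 alone.

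**Figure D3:**
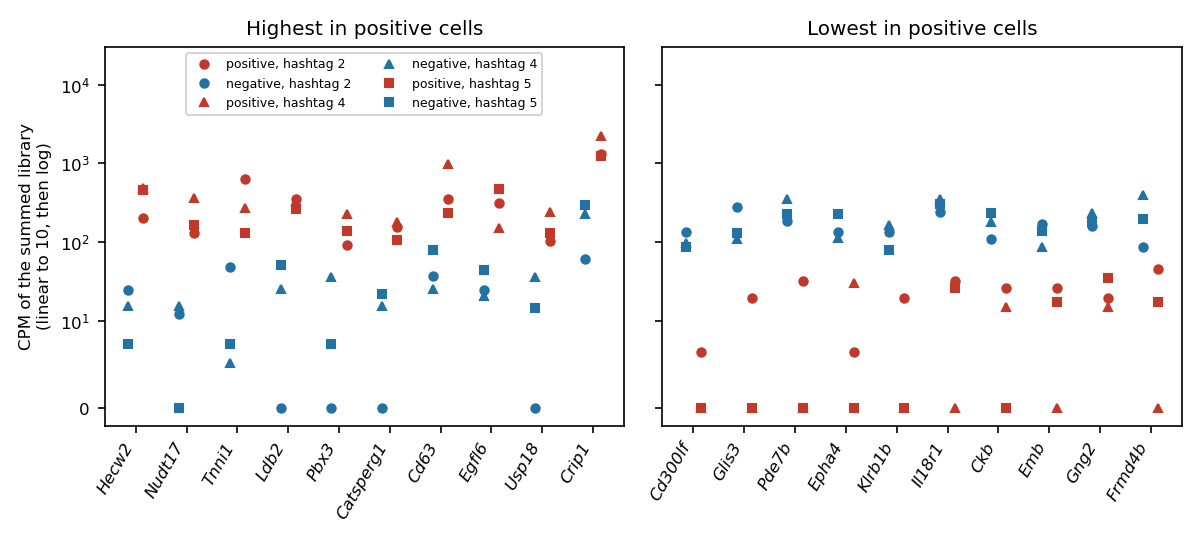
Levels in CPM (linear to 10, then log) of the 10 genes with the largest increases (left) and decreases (right) in each summed library, red for positive and blue for negative, with a symbol for each hashtag. For all 20 genes the red and blue points do not overlap; Crip1 is the highest, at 1234 to 2239 CPM in positive libraries.

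Several of the largest decreases were near absence on the positive side. Those given here passed the count filter only through their negative libraries, so a gap between the sides is in part set by the filter. Il18r1 (chr1:40465552-40500854), a chain of the IL-18 receptor, was 32.2, 0 and 26.1 CPM against 243, 353 and 305.2 CPM (-3.64 ± 0.58, edgeR adjusted p = 0.016). Pde7b, a phosphodiesterase that breaks down cAMP, was 32.2, 0 and 0 CPM against 182, 353 and 225 CPM (-4.03 ± 0.73), and its 5 positive UMIs came from 2 of 26 cells. The positive sides of Cd300lf, an inhibitory receptor of myeloid cells, Glis3, a zinc-finger factor, Epha4, an ephrin receptor, and Klrb1b, a lectin-like inhibitory receptor, held 1, 3, 3 and 3 UMIs against 42, 62, 64 and 54 on the negative sides. Their ratios of levels were 0.029 (95% counting interval 0.0007 to 0.173), 0.060 (0.012 to 0.183), 0.058 (0.0116 to 0.177) and 0.069 (0.0137 to 0.211). All 4 were called by edgeR, with adjusted p of 0.039, 0.019, 0.035 and 0.043. Glis3 (-1.63) and Klrb1b (-1.78) were not called when split by Itgb8 alone.

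The other decreases among the 10 were Ckb, brain-type creatine kinase (-3.43 ± 0.76), Emb, embigin (-3.04 ± 0.75), Gng2, a G-protein gamma subunit (-2.89 ± 0.52), and Frmd4b (-2.85 ± 0.71). Gng2 was 19.3, 15.0 and 34.8 CPM against 158, 235 and 182 CPM. Frmd4b was 45.1, 0 and 17.4 CPM against 85.1, 399 and 196 CPM, so its gap was narrowest in hashtag 2. Of the marker lists of other cell types, cDC2 markers summed to 226, 135 and 43.5 CPM on the positive and 401, 374 and 400 CPM on the negative side, with Clec10a and Itgam at 0 on the positive side. Of 3 tested cDC1 markers Wdfy4, needed for cross-presentation, fell (-1.49, edgeR adjusted p = 0.043). The others were not called: Cadm1, an adhesion molecule, was 484, 451 and 243 CPM against 280, 179 and 429 CPM, and the transcription factor Irf8 was 303, 631 and 478 CPM against 438, 312 and 305.2 CPM. Clec9a, a receptor for dead cells, held 11 UMIs on the positive and 7 on the negative side. The 6 cDC1 markers summed to 1238, 1668 and 956 CPM in positive and 1763, 1745 and 1628 CPM in negative libraries, so the sides overlapped. B and plasma cell markers summed to 75.1 to 109.6 CPM against 116.3 to 204.7 CPM, mostly of Ighm. The part of these cell types in the decreases was not tested.

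To see whether the differences go with the split in another cell type, migratory DCs of the same hashtags were split by the same limits, giving 263 positive and 186 negative cells. They are gated on Ccr7 and Fscn1, so their maturation is fixed by the gate. In 6 summed libraries, fitted together with the 6 above, 7 of 6206 genes (0.113%) were called between their sides. The migratory split called Ccl17, Cd81, Lima1, Mab21l3 and Laptm4b higher (5 genes, 0.0806%) and Gria3 and Esrrg lower (2 genes, 0.0322%). Without hashtag 4 it called 0 genes, with 341 at an unadjusted p under 0.05, and without the hashtag block 21.

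The test of the difference between the splits called 152 of 6206 genes (2.45%), 132 (2.13%) with a larger and 20 (0.322%) with a smaller log2 fold change in RORgt+ DCs. Of the 119 genes called above, 77 were among them. Both tests use the same 6 libraries of RORgt+ DCs, so this count is in part set by the choice of genes. The joint fit uses the same spread for both cell types. Its common dispersion was 0.0326, against 0.113 in the fit of RORgt+ libraries alone, so the spread of these libraries may be understated in it. With a spread of its own for each cell type (limma voom, added after the data were seen) 115 genes were called, 99 of them shared. Without hashtag 4 the test called 0 genes, with 569 at an unadjusted p under 0.05, and without hashtag 5 it called 20. Nudt17 differed by 4.29 ± 0.61 and Nlrc5 by 2.20 ± 0.35 on the log2 scale, with edgeR adjusted p of 0.0033 and 0.0043. For Nrros the difference between the splits was not called (-0.81 ± 0.50, edgeR adjusted p = 0.484), and its log2 fold change between the migratory sides was -1.14.

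Hashtags 6, 8 and 9 entered no test. They held 15, 1 and 13 negative and 4, 1 and 3 positive cells by the same rule. In hashtags 6 and 9 the split rested mostly on Aldh1a2, with 12 and 8 UMIs on the positive side. Itgb8 held 2 and 0 UMIs there, against 213 in hashtags 2, 4 and 5 together. Their positive libraries held 88264 and 65416 UMIs, and their negative ones 351810 and 307386. A gene at the same level on both sides, such as 0, was counted as not sharing the direction. Of the 83 genes higher above, 73.5% were also higher on the positive side in hashtag 6 and 28.9% in hashtag 9. Genes tested and higher but not called gave 47.7% and 38.0%. Of the 36 lower genes 63.9% and 61.1% were lower there, against 67.4% and 56.1% of those not called. In hashtag 6 the positive library held 305.9 CPM of Ldb2 and 90.6 CPM of both Tnni1 and Egfl6, against 0, 0 and 2.84 CPM in the negative one. In hashtag 9 these 3 genes had 0 UMIs on both sides. Ccr7 was 397 CPM on the positive and 557 CPM on the negative side of hashtag 6, and 459 against 270 CPM in hashtag 9.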

How the data were processed

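Gene expression was measured by droplet sequencing (Chromium 3′ v3, per the labels' protocols). The authors deposited raw UMI counts per gene and barcode, made with Cell Ranger 8.0.1 on mm10, per the submitters' processing notes, and a table of hashtag calls, of which 16 columns were not used. Counting of introns and use of strand were not given in the sources used here. Of 19239 barcodes with 1 hashtag, 1294 with under 500 genes and 3627 with over 10% mitochondrial UMIs were left out.

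Counts were summed per side and hashtag and tested with edgeR 4.0.16 (TMM, filterByExpr, quasi-likelihood test, hashtag as block, Benjamini-Hochberg over all genes tested except those of the rule). In the positive against negative fit the residual degrees of freedom were 2, and 9.44 prior ones were drawn from all genes. Its common dispersion was 0.113. Levels are CPM, and log2 fold changes are from the fit. Hashtags pair the sides because each marks 1 biological replicate, per the labels. Across 2598 genes, deviations of same-hashtag libraries correlated at -0.18, -0.03 and -0.10, so the pairing rests on the labels. DESeq2 1.42.0 and limma 3.58.1 were alternatives. On simulated counts of 2601 genes, the positive against negative comparison recovered 67.2% of 4-fold and 9% of 2-fold changes.

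Members and gene lists were chosen with earlier results of these data known. The named genes were the rule genes, 15 chosen ones, at most 3 called members per list and the 10 highest and 10 lowest calls with 1 direction in 3 of 3 hashtags and at least 15 UMIs. Further list members, the genes called in the migratory split and Wdfy4 are named outside this rule, chosen after their values were seen. Promoters are from RefSeq (GRCm38.p6, the assembly of mm10). The labels call the replicates biological without naming mice, so p-values refer to these replicates only. The spread behind each p-value is in large part drawn from other genes, as the prior degrees of freedom show.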

Additional observations from a re-analysis of the deposited data

Results flagged for a closer look

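The difference between the sides was itself different in RORgt+ DCs and in migratory DCs for 17 named genes (edgeR, difference between the splits, 3 hashtags). Most of these genes were named because they were called or ranked by the split of RORgt+ DCs, so a larger difference there is in part set by that choice. Migratory DCs are gated on Ccr7 and Fscn1, which fixes the maturation genes among them. On the log2 scale, the difference in RORgt+ DCs exceeded that in migratory DCs by 5.33 for Hecw2, 4.29 for Nudt17, 3.56 for Pbx3, 3.31 for Usp18, 3.15 for Catsperg1, 3.04 for Cd63 and 2.42 for Crip1. It exceeded it by 2.67 for Il15, 2.20 for Nlrc5, 2.19 for H2-Eb2, 2.17 for Tnfrsf1b and 1.46 for Il7r. The values for Tnni1 (6.39) and Ldb2 (8.72) rest on migratory libraries that hold few or no UMIs of these genes, and are not sizes. For Ckb, Gng2 and Frmd4b the log2 fold change in RORgt+ DCs differed from that in migratory DCs by -3.23, -2.87 and -3.22. In migratory DCs their log2 fold changes were -0.20, 0.01 and 0.40.

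With a spread of its own for each cell type (limma voom), H2-Eb2, Il7r, Ckb, Gng2 and Frmd4b were no longer called, with adjusted p of 0.092, 0.074, 0.079, 0.113 and 0.088. None of the 17 was called without hashtag 4, where the edgeR test of this difference gave 0 genes.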

How the results depend on the processing

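The count of genes called between the sides (119) ranged from 0 to 482 when 1 hashtag was left out; hashtag 4 is the one without which 0 remained, and DESeq2 without it called 6. The count was 202 without the hashtag block on the replicates, 225 without a filter on low counts, 70 at the 5% mitochondrial limit, 61 with sides set on thinned cells, 79 by Aldh1a2 alone and 68 by Itgb8 alone. Settings that stayed within 1.5 times gave 87 to 166, the latter on thinned cells, of 813 genes tested (20.4%, against 4.58%); with positive cells at 3 or more UMIs the share of calls that were higher was 56.3%, against 69.7%. The difference between the splits (152) ranged from 0 to 354 with 1 hashtag left out, and the migratory split (7) from 0 to 31; the latter had 71 calls without the filter and 21 without the block. Itgav (-0.07) turned to 0.15 by DESeq2 without hashtag 4, 0.036 with Prdm16 at 3 or more UMIs, 0.076 without the block, and 0.27 and 0.30 without hashtags 4 and 2. Flt3 (0.62) ranged from -0.14 without hashtag 5 to 1.32 without hashtag 2. Of the named called genes with a value (8 on thinned cells, 11 with sides set on them, 22 to 29 in the other settings), 0 turned. The causes were not tested. Libraries of 66537 to 195381 UMIs limit the tested genes to 2598.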

Other observations

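The 19 Prdm16-high cells with exactly 1 UMI of Itgb8 and Aldh1a2 together entered neither side. Pooled over hashtags 2, 4 and 5, they held 307 CPM of Ccr7, against 532 CPM in positive and 98.7 CPM in negative cells. Their Nudt17 level was 132 CPM, against 187 and 9.63 CPM, and their Cd63 level 556 CPM, against 437 and 45.8 CPM. Crip1 stood at 1599 CPM in these cells, against 1476 and 214 CPM, and Nlrc5 at 541 CPM, against 538 and 135 CPM. For Egfl6 they held 63.4 CPM, nearer to the 28.9 CPM of negative cells than to the 336 CPM of positive cells. Tnni1 was 648 CPM in them, above the 386 CPM of positive cells. Il18r1 was 102 CPM, between 23.8 CPM in positive and 315 CPM in negative cells. These are pooled values with no error, and no test was made.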
